A study of Mus musculus with 6 samples.

Results

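Transcripts of 36 genes for lysosomal hydrolases, their activator proteins and lysosomal membrane proteins were described in mouse osteoclasts, giant cells of the monocyte lineage that dissolve bone. The genes were taken by symbol from a list of lysosomal genes, and all 36 were found among the 23204 genes of the deposited count table. The study compared RNA-seq libraries of 3 wild-type cultures with 3 labelled Tet2Rank–/–; Tet3aRank+/–, named Tet2KOTet3Het in the table and read here as lacking both copies of *Tet2* and 1 copy of *Tet3*, genes for enzymes that oxidise methylated cytosine. Both groups were C57BL/6 mice, 1 female and 2 male by the labels of each group. Adherent bone marrow cells obtained after 2 days in M-CSF, a macrophage growth factor, were turned into osteoclasts with M-CSF and RANKL, the signal for osteoclast formation. The labels explain neither Rank nor Tet3a, and give neither the cells or stage the deletion reached nor the age of the mice. Wild-type libraries are called 1, 4 and 6 and those labelled mutant 2, 3 and 5, after the number that opens each column name. The columns carry no replicate number or sex. Both sexes in each group mean more than 1 mouse a group, but the labels do not say that each library came from its own animal, so p-values measure only the spread between these libraries.

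Lysosomes are acid compartments in which hydrolases take apart glycolipids, glycosaminoglycans, glycoproteins, glycogen, sterol esters and peptides. Most soluble hydrolases receive a mannose 6-phosphate tag in the Golgi and are carried by receptors to the lysosome, whose membrane holds transporters, channels and heavily glycosylated proteins such as LAMP1. Osteoclasts also send lysosome-related vesicles to the bone-facing membrane, where acid and enzymes are released onto bone. TFEB and its relatives TFE3 and MITF are transcription factors known to bind E-box elements at many lysosomal genes.

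Total counts per library ran from 8794973 to 14267135. Libraries 5 and 6 carry a second number in their column names and libraries 1 to 4 do not; this split, called the naming batch here, holds both genotypes on each side. *Tet2* read 71.7, 80.9 and 79.3 CPM (a gene's share of the counts of its library, scaled by TMM) in libraries 1, 4 and 6 and 58.2, 45.6 and 52.3 CPM in libraries 2, 3 and 5. *Tet3* read 145, 121 and 127 CPM against 163, 141 and 156 CPM, so it was not lower where the label gives 1 deleted copy. The log2 fold change was -0.57 for *Tet2* (SE 0.120, adjusted p = 0.0924) and 0.23 for *Tet3* (SE 0.117, adjusted p = 0.360) in edgeR. The two-sided exact permutation p was 0.1 and 0.2, and 0.1 is the smallest that 3 libraries against 3 can give. The 12 osteoclast markers, among them *Acp5*, *Ctsk* and *Calcr*, were detected in every library, with a summed level of 15354 to 40178 CPM in wild type and 3025 to 12577 CPM in the libraries labelled mutant. Their part in the results below was not tested, and fewer cells of a type cannot be told apart from less RNA per cell.

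All 36 genes were well expressed, from 30.4 CPM for *Galns* in library 4 to 18276 CPM for *Psap* in library 2, and all passed the filter on low counts. The lowest raw count of any of them in any library was 312. The median over the 36 genes of the mean level was 215 CPM, against 23.4 CPM over the 14040 genes tested, so counting error is smaller for them than for most genes. Per kilobase of exon, which allows genes to be compared, *Psap*, the precursor of the saposins that present sphingolipids to hydrolases, stood highest in wild type at 3641 ± 982 CPM per kb (SD, n = 3). *Hexa* (626 ± 142), which encodes the alpha subunit of beta-hexosaminidase, and *Lamp1* (549.6 ± 170) followed and did not differ beyond their spread. *Laptm5* (342 ± 46.0), a membrane protein of blood cells, *Npc2* (300.5 ± 52.7), which binds cholesterol in the lumen, and *Lgmn* (273 ± 45.9), an asparaginyl endopeptidase, came next and overlapped within 1 SD. By the longest transcript the wild-type mean of *Lgmn* (318) lay further below those of *Laptm5* (498) and *Npc2* (495). In the libraries labelled mutant *Lamp1* (933 ± 127) came behind *Psap* (6119 ± 664), then *Hexa* (633 ± 41.3) and *Lgmn* (589 ± 102), which overlapped within 1 SD, and then *Laptm5* (391 ± 27.9). Per kilobase of the longest transcript, *Lgmn* (688) stood above *Hexa* (632.5) in these libraries. *Galc* stood lowest at 5.61 ± 1.63 CPM per kb in wild type, but its annotated exons sum to 14879 bases and its longest transcript to 4439, and per kilobase of the longest transcript it stood at 18.8.

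**Figure D1:**
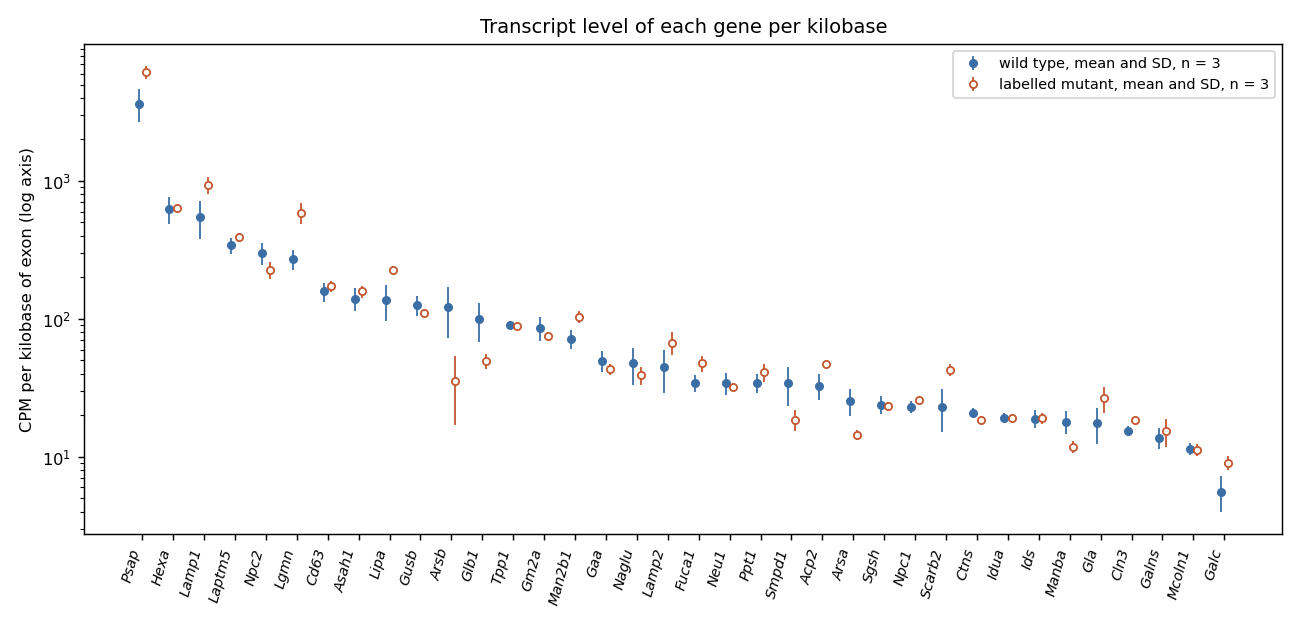
Level of each of the 36 genes per kilobase of annotated exon (TMM-scaled CPM per kb, log axis), with points at the mean of 3 libraries and bars of 1 SD, filled for wild type and open for labelled mutant. *Psap* lies apart at 3641 in wild type and 6119 in labelled mutant, and *Galc* is lowest at 5.61 and 9.05.

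The comparison of the genotypes asks which of these transcripts differ between wild-type osteoclasts and those labelled mutant. Not one of the 36 passed at an adjusted p of 0.05 in edgeR's quasi-likelihood test, where 10 of 14040 genes (0.0712%) did, and the adjusted p of the 36 lay between 0.0768 for *Lgmn* and 0.997 for *Idua*. At an unadjusted p under 0.05, 11 genes were higher (30.6%, against 7.19% of all genes tested) and 5 were lower (13.9% against 12.4%). The libraries of one genotype lay wholly above those of the other for 16 genes. Of these, 11 were higher in the libraries labelled mutant (30.6%, against 9.91% of all genes tested) and 5 were lower (13.9% against 16.9%), so the lower share was near that of all genes. The median log2 fold change of the 36 was 0.07 (quartiles -0.19 and 0.53), against -0.03 (quartiles -0.28 and 0.25) over all genes tested. In the edgeR fit that adds the naming batch (the batch term below), *Fuca1*, *Lgmn* and *Scarb2* rose (8.33%, against 3.08% of all genes) and *Glb1*, *Arsa*, *Smpd1*, *Arsb* and *Manba* fell (13.9% against 5.60%). That count moved with single libraries: it was 1 (*Glb1*) without library 4, 3 without library 2, 7 without library 1 and 12 without library 3. The share of all genes called in those smaller fits is not given here, so these counts cannot be read as particular to the 36. DESeq2 on all 6 libraries called 9 higher (against 5.26% of the genes it tested) and 5 lower (against 6.00%), which are the 16 genes less *Lamp2* and *Cln3*.

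**Figure D2:**
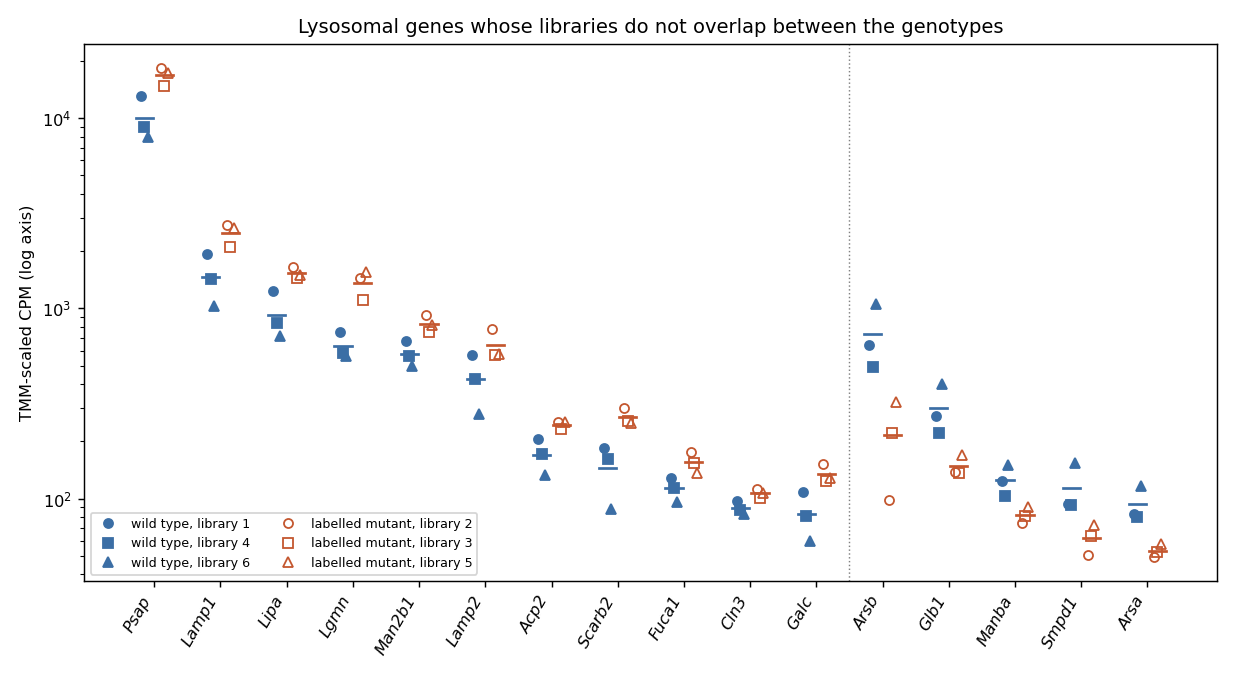
TMM-scaled CPM (log axis) in each library for the 16 genes whose libraries do not overlap between the genotypes, 11 higher and 5 lower in the libraries labelled mutant, split by the dotted line. Filled points are wild type, open points labelled mutant, and short lines the means of 3; wild-type library 6 (filled triangle) is the wild-type library nearest the mutant values for none of the 16 genes.

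Together the 36 genes took 2.16% to 2.79% of all counts in wild type and 3.04% to 3.54% in the libraries labelled mutant. *Psap* alone took 0.770% to 1.27% and 1.52% to 1.83%. Without *Psap*, the summed level of the other 35 was 15578, 12229 and 14341 CPM in libraries 1, 4 and 6 and 17059, 14690 and 16817 CPM in libraries 2, 3 and 5, and the genotypes overlapped.

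Genes of sphingolipid and glycolipid breakdown went both ways: of 10, 2 were higher and 3 lower with no overlap (9.91% and 16.9% of all genes tested), and 3 fell with the batch term (5.60% of all genes). *Glb1*, the beta-galactosidase that removes terminal galactose from ganglioside GM1 and keratan sulfate, read 273, 222 and 402 CPM in libraries 1, 4 and 6 and 138, 137 and 170 CPM in libraries 2, 3 and 5. Every mutant-labelled library was below every wild-type one, -1.01 on the log2 fold scale (SE 0.238; edgeR gave an adjusted p of 0.104, and of 0.0174 with the batch term). *Arsa*, the arylsulfatase that desulfates sulfatide, read 83.1, 80.1 and 116.8 CPM against 49.6, 52.5 and 58.1 CPM, a log2 fold change of -0.81 (SE 0.169, adjusted p = 0.0924, and 0.0168 with the batch term). *Smpd1*, acid sphingomyelinase, read 93.9, 92.4 and 154.5 CPM against 50.4, 63.5 and 72.8 CPM, a log2 fold change of -0.87 (SE 0.246, adjusted p = 0.136, and 0.0213 with the batch term). In these 3 genes library 6 was the highest and library 5 the highest of the libraries labelled mutant.

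*Psap* and *Galc* went the other way. *Psap* read 13039, 9004 and 7930 CPM in libraries 1, 4 and 6 and 18276, 14757 and 17337 CPM in libraries 2, 3 and 5. Its groups did not overlap, but its log2 fold change of 0.75 (SE 0.228) did not pass in edgeR with or without the batch term (adjusted p = 0.104 and 0.151). *Galc*, which removes galactose from galactosylceramide with the help of a saposin, read 109, 81.5 and 60.2 CPM against 152, 124 and 128 CPM, a log2 fold change of 0.69 (SE 0.223, adjusted p = 0.162, and 0.0530 with the batch term). *Gla*, the alpha-galactosidase that acts on globotriaosylceramide, had a log2 fold change of 0.61 (SE 0.247) but overlapped, since wild-type library 1 (76.2 CPM) lay above mutant-labelled library 3 (67.35 CPM). *Hexa* (0.01), *Asah1* (0.17), the acid ceramidase gene, *Neu1* (-0.10), the sialidase gene, and *Gm2a* (-0.21), the GM2 activator gene, had log2 fold changes with adjusted p of 0.594 or more.

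Of the 7 glycosaminoglycan enzymes 1, *Arsb*, was lower with no overlap and 0 were higher. The lower share of 14.3% was near the 16.9% of all genes tested, of which 9.91% were higher with no overlap. *Arsb*, the sulfatase that acts on dermatan and chondroitin sulfate, read 644, 495 and 1055 CPM in libraries 1, 4 and 6 and 98.8, 223 and 323 CPM in libraries 2, 3 and 5. The means were 731 ± 290 and 215 ± 112 CPM (SD, n = 3 each), the widest fold among the 36 genes, and both genotypes varied more than 2-fold between their own libraries. Its log2 fold change of -1.77 (SE 0.481) had an adjusted p of 0.130 in edgeR and 0.0226 with the batch term, and ranged from -2.19 to -1.38 when each library was left out. *Gusb*, beta-glucuronidase and the most abundant of the 7 over all libraries, also per kilobase, read 582, 478 and 661 CPM against 490, 502 and 516 CPM, and its genotypes overlapped (log2 fold change -0.19, SE 0.15). *Idua* and *Ids*, which start the breakdown of heparan and dermatan sulfate, had log2 fold changes of -0.002 and 0.01. *Naglu* (-0.28), *Sgsh* (-0.03) and *Galns* (0.15), which act on heparan or keratan sulfate, overlapped as well, with adjusted p of 0.616 or more.

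Among the 4 enzymes of glycogen and glycoprotein breakdown, the 2 mannosidase genes went opposite ways. *Man2b1*, the lysosomal alpha-mannosidase, read 676, 559 and 497 CPM in libraries 1, 4 and 6 and 924, 749 and 823 CPM in libraries 2, 3 and 5, a log2 fold change of 0.53 (SE 0.165, adjusted p = 0.157, and 0.0806 with the batch term). *Manba*, the beta-mannosidase, read 123, 103 and 151 CPM against 74.5, 81.4 and 90.7 CPM, a log2 fold change of -0.61 (SE 0.165, adjusted p = 0.128, and 0.0304 with the batch term). *Fuca1*, the alpha-fucosidase, read 129, 114 and 96.4 CPM against 177, 154 and 136 CPM, a log2 fold change of 0.46 (SE 0.154, adjusted p = 0.174, and 0.0482 with the batch term). None of the 3 overlapped between the genotypes. Of the 4 genes, 2 were thus higher and 1 lower with no overlap, against 9.91% and 16.9% of all genes tested. So short a list allows no reading of these counts. *Gaa*, the glycogen-degrading alpha-glucosidase, overlapped at -0.20.

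Of the 3 sterol-handling genes 1 was higher with no overlap (33.3%, against 9.91% of all genes tested) and 0 were lower (against 16.9%). So short a list allows no reading of these shares. *Lipa*, the acid lipase that frees cholesterol from its esters, read 1232, 842 and 713 CPM in wild-type libraries 1, 4 and 6 and 1655, 1449 and 1504 CPM in libraries 2, 3 and 5. Its log2 fold change was 0.73 (SE 0.226, adjusted p = 0.157, and 0.0670 with the batch term). *Npc2*, the luminal cholesterol carrier, read 1673, 1330 and 1899 CPM against 1377, 1037 and 1259 CPM and overlapped, with a log2 fold change of -0.42 (SE 0.192, adjusted p = 0.303). *Npc1*, the membrane protein that takes cholesterol over from NPC2, stood at 261 ± 25.3 and 290.5 ± 12.4 CPM (SD, n = 3 each), a log2 fold change of 0.15.

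*Lgmn* had the smallest p of the 36. It encodes legumain, which cuts after asparagine and trims cathepsins, and read 756, 581 and 563 CPM in libraries 1, 4 and 6 and 1445, 1102 and 1558 CPM in libraries 2, 3 and 5. Each mutant-labelled library lay above every wild-type one, and the log2 fold change of 1.11 (SE 0.199, adjusted p = 0.0768, and 0.0251 with the batch term) stayed between 1.002 and 1.255 when each library was left out. *Acp2*, a lysosomal acid phosphatase, read 207, 171 and 134 CPM against 252, 231 and 253 CPM, a log2 fold change of 0.53 (SE 0.173, adjusted p = 0.168). *Tpp1*, tripeptidyl peptidase, stood at 468 ± 30.3 and 462 ± 16.8 CPM, and *Ppt1*, which removes palmitate from proteins, at 126 ± 19.6 and 151 ± 22.5 CPM (SD, n = 3 each), and both overlapped.

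Of the 8 membrane proteins, 4 were higher with no overlap and 0 were lower, against 9.91% and 16.9% of all genes tested. *Scarb2*, which encodes LIMP-2, the receptor that brings glucocerebrosidase to the lysosome, read 185, 161 and 88.3 CPM in libraries 1, 4 and 6 and 299, 257 and 249 CPM in libraries 2, 3 and 5. Its log2 fold change was 0.89 (SE 0.274, adjusted p = 0.153, and 0.0325 with the batch term). *Lamp1*, the abundant glycoprotein of the lysosomal membrane, read 1942, 1436 and 1032 CPM against 2740, 2107 and 2642 CPM, a log2 fold change of 0.76 (SE 0.258, adjusted p = 0.177, and 0.0903 with the batch term). *Lamp2*, its relative with a role in autophagy, read 569, 428 and 278 CPM against 781, 572 and 576 CPM, so that libraries 1 and 3 were nearly level (569.0 and 571.6 CPM). *Cln3*, the gene of juvenile Batten disease, read 97.8, 87.3 and 83.1 CPM against 113, 101 and 108 CPM, a log2 fold change of 0.26 (SE 0.104, adjusted p = 0.234). Exons of *Cln3* share 442 bases with *Apobr* on the other strand, which read 71.8 to 130.4 CPM, and the strand setting of the count is not given in the sources used here. *Cd63* (0.12), a tetraspanin, *Laptm5* (0.19), *Mcoln1* (-0.02), the calcium channel of the lysosome, and *Ctns* (-0.18), the cystine exporter, overlapped.

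**Figure D3:**
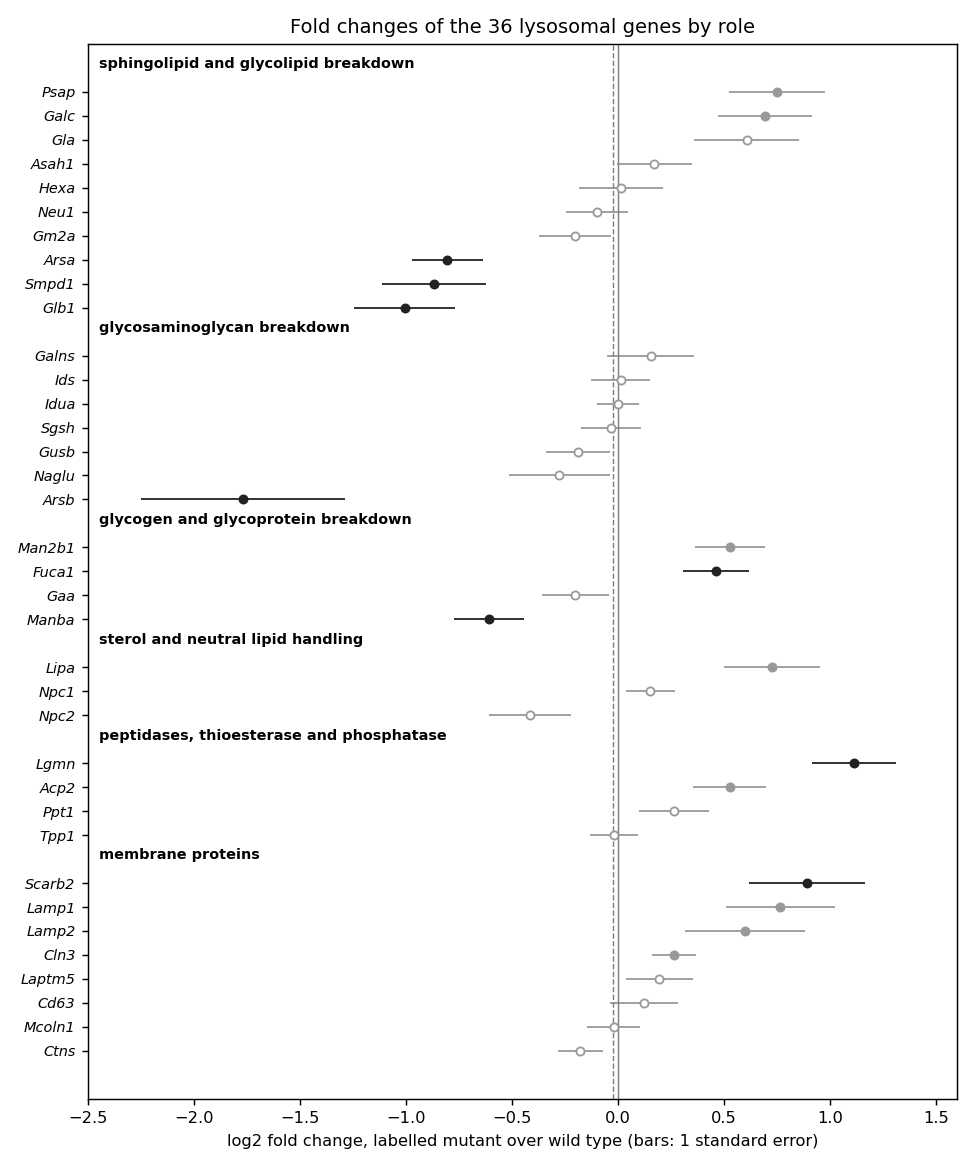
Log2 fold change of labelled mutant over wild type for the 36 genes by role, with bars of 1 standard error (edgeR, genotype only). Filled points have libraries that do not overlap, black points passed an adjusted p of 0.05 in the fit with the batch term, and the dashed line is the median of all genes tested (-0.03); the points run from -1.77 for *Arsb* to 1.11 for *Lgmn*.

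The 20 genes whose libraries overlapped had log2 fold changes between -0.42 (*Npc2*) and 0.61 (*Gla*), and 18 of them lay within 0.3 of 0. Within the naming batches, 29 of the 36 genes (80.6%) had the same sign for libraries 2 and 3 over 1 and 4 as for library 5 over 6, against 71.7% of all genes tested, and these ratios share no library. All 16 genes without overlap did so, a direction that their choice fixes. The ratio was wider between libraries 5 and 6 for 15 of the 16, *Arsb* being the exception (-1.83 and -1.71), and for 32 of the 36, against 63.2% of all genes. *Scarb2* had the smallest p for a difference between the batches, at 0.69 within libraries 1 to 4 and 1.497 between 5 and 6 (interaction term, edgeR adjusted p = 1), and not one of the 36 passed that test.

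**Figure D4:**
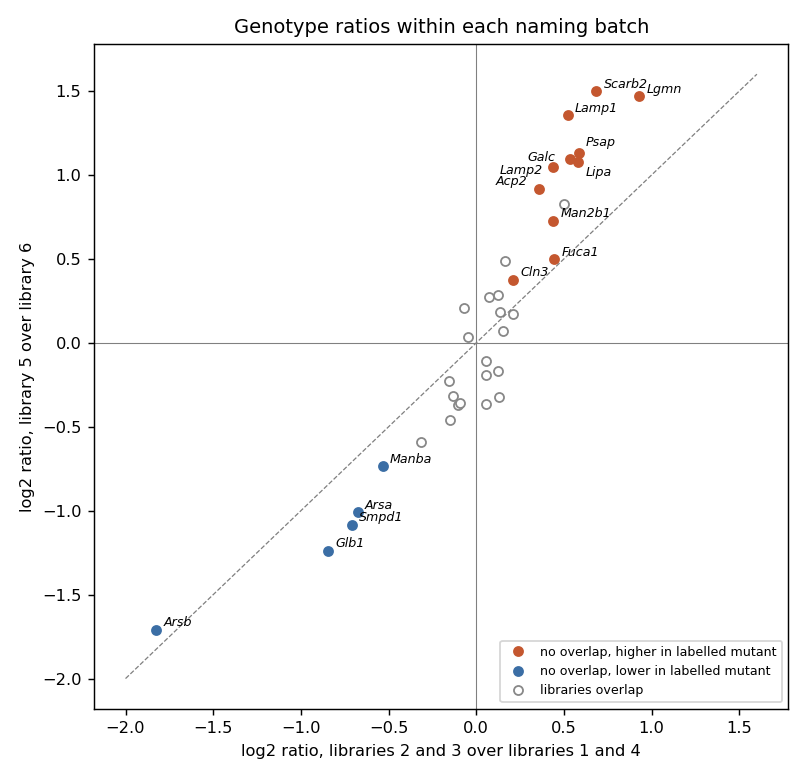
Log2 ratio of library 5 to library 6 against the log2 ratio of libraries 2 and 3 to libraries 1 and 4 for the 36 genes, with the dashed line marking equal ratios. The 11 higher genes lie above 0 and the 5 lower genes below 0 on both axes, which their choice fixes, and *Scarb2* reaches 1.497 against 0.69.

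Among wild-type libraries, library 6 was the lowest and library 1 the highest of the wild-type libraries for all 11 higher genes, and library 6 was the highest and library 4 the lowest for all 5 lower genes. Of the libraries labelled mutant, library 2 was the highest for 9 of the 11 higher genes, and library 5 was the highest for all 5 lower genes. The osteoclast markers were also highest in library 6 (40178 CPM summed) and lowest in library 2 (3025 CPM), and 12 of 12 had a log2 fold change below 0 (median -1.497). Of these 0 passed in edgeR, where 0.0712% of all genes tested did. At an unadjusted p under 0.05, 7 were lower (58.3%, against 12.4% of all genes tested). DESeq2 called 4 lower (33.3%, against 6.00% of the genes it tested), and 9 fell with the batch term (75.0% against 5.60%). The 14 macrophage markers summed to 4991 to 6638 CPM in wild type and 8765 to 9389 CPM in the libraries labelled mutant. None of them read 0 CPM in every library, and 14 of 14 had a log2 fold change above 0 (median 1.04). In edgeR 1 of the 14 rose, where 0.0712% of all genes tested passed. At an unadjusted p under 0.05, 10 of the 14 were higher, against 7.19% of all genes tested. DESeq2 called 10 of the 14 higher, against 5.26% of the genes it tested. With the batch term 7 of the 14 rose, against 3.08% of all genes tested. The marker list for dendritic cells and MHC class II overlapped between the genotypes (806 to 1980 against 1602 to 5949 CPM). So did those for neutrophils (251 to 894 against 438 to 1359 CPM) and stromal cells (1301 to 3431 against 1144 to 4869 CPM). With the batch term 4 of 8, 4 of 9 and 0 of 10 genes tested rose, against 3.08% of all genes tested. Those of the first list were *H2-Aa*, *H2-Ab1*, *H2-Eb1* and *Cd74*. Of its 8 genes 6 had a log2 fold change above 0 in the fit with genotype only. The 2 below 0 were *Itgax* (-0.73), which overlapped, and *Zbtb46* (-0.77), which did not. Lymphocyte markers summed to 40.3 to 162 and 139 to 185 CPM, most of it *Cd4*, which macrophages can express, with *Cd3e* and *Cd3g* at 0 in most libraries. The part of these lists in the lysosomal values was not tested.

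**Figure D5:**
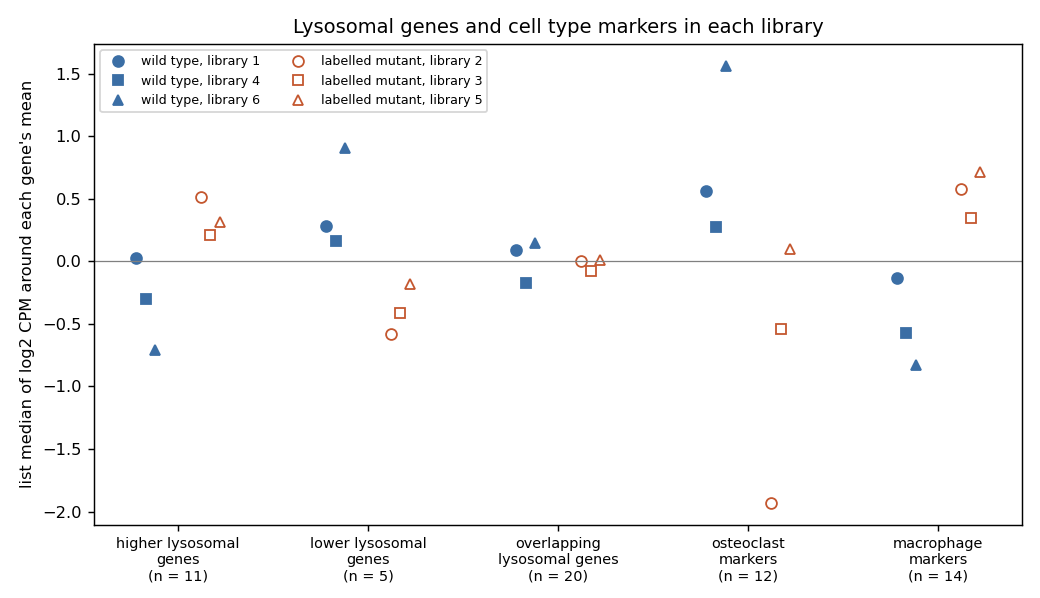
Median over each list of log2 CPM after subtracting each gene's average across libraries, for lysosomal genes by their overlap between genotypes and for the osteoclast and macrophage marker lists; filled points are wild type and open points labelled mutant. Library 6 is lowest for the 11 higher genes (-0.71) and highest for the 5 lower genes (0.90) and the osteoclast markers (1.56).

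In 4 further lists of lysosomal genes, 0 passed the threshold in edgeR. Of 28 further hydrolases and luminal proteins, 5 were higher and 4 lower at an unadjusted p under 0.05. With the batch term 3 rose and 3 fell. DESeq2 called 4 higher (14.3%, against 5.26% of the genes it tested) and 3 lower (10.7% against 6.00%). The shares at an unadjusted p under 0.05 were 17.9% higher (7.19% of all genes tested) and 14.3% lower (12.4%), and with the batch term 10.7% in each direction (3.08% and 5.60%), so the lower share at an unadjusted p was near that of all genes. *Ifi30*, a thiol reductase of antigen processing, read 793, 721 and 1005 CPM in libraries 1, 4 and 6 and 114, 213 and 286 CPM in libraries 2, 3 and 5, and fell with that term (log2 fold change -2.04, adjusted p = 0.0764 and 0.0136). *Ctbs*, a chitobiase (-0.59), fell too, and *Pla2g15*, a phospholipase (0.63), and *Pld3*, an exonuclease of the lysosome (0.69), were among those that rose.

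Of 27 further membrane proteins and transporters, 9 were higher and 4 lower at an unadjusted p under 0.05. With the batch term 5 rose and 2 fell. DESeq2 called 8 higher (29.6%, against 5.26% of the genes it tested) and 1 lower (3.70% against 6.00%). The lower shares, 14.8% at an unadjusted p and 7.41% with the batch term, were near the 12.4% and 5.60% of all genes tested; the higher shares were 33.3% and 18.5%, against 7.19% and 3.08%. *Slc15a3*, a peptide and histidine transporter, rose from 41.6, 31.4 and 38.3 CPM to 91.4, 77.7 and 114 CPM (log2 fold change 1.35, adjusted p = 0.0544, and 0.0135 with the term). *Tpcn2*, an ion channel (0.53), *Slc36a1*, an amino acid transporter (0.56), and *Pip4p1*, listed under its older symbol Tmem55b (0.54), rose as well. *Ostm1* (-0.73) and its partner *Clcn7* (-0.71), the chloride exchanger of the lysosome and ruffled border, fell; *Clcn7* was named after its value was seen.

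Of 14 genes for mannose 6-phosphate tagging and sorting, 2 were higher and 4 lower at an unadjusted p under 0.05. With the batch term 2 rose and 2 fell. DESeq2 called 2 higher (14.3%, against 5.26% of the genes it tested) and 2 lower (14.3% against 6.00%). In this short list 14.3% were higher and 28.6% lower at an unadjusted p under 0.05 (7.19% and 12.4% of all genes tested), and 14.3% rose and 14.3% fell with the batch term (3.08% and 5.60%). *Gnptab*, a subunit of the enzyme that begins the tag, read 444, 356 and 736 CPM in libraries 1, 4 and 6 and 115.5, 204 and 278 CPM in libraries 2, 3 and 5 (log2 fold change -1.36, SE 0.396, adjusted p = 0.141, and 0.0226 with the term). *Igf2r*, the large mannose 6-phosphate receptor, had -0.72 and also fell. *Sort1*, a sorting receptor for prosaposin among others, had 0.89, and *Ap1b1*, an adaptor subunit, 0.88, and both rose. Of 18 MiT/TFE factors and nutrient-sensing genes 0 passed in either edgeR fit, and 2 were higher and 2 lower at an unadjusted p under 0.05. DESeq2 called 1 higher (5.56%, near the 5.26% of the genes it tested) and 0 lower (against 6.00%). The unadjusted shares were 11.1% in each direction, against 7.19% higher and 12.4% lower over all genes tested. *Fnip2* (0.31) and *Rragc* (0.32), which act in amino acid sensing at the lysosome, had the highest mean CPM and overlapped. *Tfe3* read 126, 118 and 115 CPM against 172, 150.5 and 158 CPM (log2 fold change 0.42, adjusted p = 0.108, and 0.0538 with the term) and *Tfeb* 46.4, 41.8 and 41.0 CPM against 51.9, 60.1 and 49.2 CPM (0.32, adjusted p = 0.197), while *Mitf* overlapped at -0.34. *Tfec*, the fourth factor of this family, went the other way with no overlap, at 66.1, 57.1 and 73.0 CPM against 38.9, 48.7 and 56.4 CPM (log2 fold change -0.45, adjusted p = 0.211, and 0.0754 with the term); these 4 were named for their role in lysosomal transcription after their values were seen.

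Promoters were searched for the letters TCACGTGA, the core of the element that TFEB and its relatives bind, for the E-box CACGTG that it contains, and for TCACATGA, all on both strands. RefSeq's table (GRCm38.p6, which is the build mm10 of the count table) held 33 of the 36 genes, each with 250 bases before and 50 after its start. Before the start, TCACGTGA stood in 3 of 33 genes (9.09%, against 0.907% of 27025 genes), CACGTG in 10 of 33 (30.3% against 6.86%) and TCACATGA in 1 of 33 (3.03% against 0.984%). The 27025 genes are all those of the promoter table, expressed here or not, whereas all of the 36 were well expressed. The share among the 14040 genes tested was not counted. A match is a description of the letters and shows no binding. The genes with TCACGTGA were *Gla* (at 2 places, the first shown), *Mcoln1* and *Cln3* (at 1 of its listed starts); short stretches around it are given, with the core in capitals, 5′ to 3′ on the gene's strand.
Gla, chrX:134601215-134601244, minus strand: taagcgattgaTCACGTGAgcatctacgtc
Mcoln1, chr8:3500462-3500491, plus strand: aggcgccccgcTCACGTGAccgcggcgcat
Cln3, chr7:126583340-126583369, minus strand: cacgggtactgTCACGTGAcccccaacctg

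All 30 bases of each of these 3 stretches lie in an exon annotated by GENCODE M21. Those of *Mcoln1* and *Cln3* lie inside the gene as GENCODE M21 places it, so before the start refers to the starts of RefSeq's table. Among the 11 higher genes CACGTG stood in *Lamp1*, *Lgmn* and *Cln3*, among the 5 lower genes in *Glb1* and *Arsa*, and among the overlapping genes in 5 of the 17 with a promoter in the table, so genes of either direction held it. *Lamp1* had 4 copies, all before its start. Its stretch is given beside those of the 2 lower genes, chosen after their values were seen, with CACGTG in capitals.
Lamp1, chr8:13159089-13159160, plus strand: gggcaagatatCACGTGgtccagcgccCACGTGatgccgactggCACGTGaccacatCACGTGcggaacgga
Glb1, chr9:114401019-114401046, plus strand: tgcttctgagtCACGTGgcctacagagg
Arsa, chr15:89477425-89477451, minus strand: caactcagtgtCACGTGttgtctgctc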

How the data were processed

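RNA-seq of 6 mouse osteoclast libraries was used. Stranded mRNA libraries gave single-end reads of 75 bases, per the labels' protocols. TopHat2 2.0.13, Bowtie2 2.2.3, SAMtools 0.1.19 and mm10 are named in the submitters' processing notes; the counter, strand setting and annotation were not given in the sources used here. The authors deposited raw counts per Ensembl gene, not normalized. Of 23264 rows, 60 were exact repeats and were left out. Columns name the genotype only. Counts were TMM-scaled, filtered with filterByExpr (14040 genes) and tested with edgeR 4.0.16 (R 4.3.3) by the quasi-likelihood test with genotype as the only term, Benjamini-Hochberg adjusted over all genes tested at 0.05; SE was taken as |log2 fold change| divided by √F. edgeR's common coefficient of variation between libraries came to 40.9%, or 23.5% once the naming batch was a term. Alternatives were the naming batch as a term, other scalings, no filter, DESeq2 1.42.0, libraries 1 to 4 only and each library left out. Exon lengths came from GENCODE M21, in which all 36 genes have the deposited start and end. The 36 genes, the other lists and the tests were chosen with earlier results of these data known. Library values are given for genes past the threshold in either edgeR fit, genes whose libraries do not overlap and the most abundant gene of each role; of the other lists, up to 5 genes past the threshold by smallest p, or the 2 most abundant; 1 gene that this rule names is not reported here. The opening of each column name gives the library number.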

Additional observations from a re-analysis of the deposited data

How the results depend on the processing

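The number of the 36 genes past the threshold was 0 under every scaling, without the filter, in libraries 1 to 4 only and with each library left out; at an unadjusted p under 0.05 it was 16. It was 14 in DESeq2 and 8 in the fit with the naming batch. The count with the naming batch became 7, 3, 12 and 1 when library 1, 2, 3 or 4 in turn was left out as well. That alternative was chosen after seeing the data, and the cause was not tested. The share of all genes called in those smaller fits is not given here. Calls in the 4 further lists (28, 27, 14 and 18 genes) were 21 in DESeq2, 15 of them higher and 6 lower. DESeq2 called 5.26% of the genes it tested higher and 6.00% lower. With the naming batch 17 were called, 10 higher and 7 lower, against 3.08% and 5.60% of all genes tested. There was 1 call each with library totals alone and without the filter, for which the share of all genes is not given here. The median log2 fold change of the 36 stayed between 0.04 and 0.12 under all alternatives run. The genes whose libraries do not overlap numbered 16 with DESeq2's size factors and 19 with library totals alone. With 1 library left out they numbered 16 to 21, but fewer libraries separate more easily. The share of all genes tested in those smaller sets was not counted. The median level per kilobase in wild type was 39.5 CPM, and 49.2 CPM by the longest transcript, a shorter length. The share of promoters was 9.09% for TCACGTGA and 30.3% for CACGTG, which the longer letters contain. Log2 fold changes near 0 changed sign in 8 genes. With libraries 1 to 4 only they were 0.056 for *Neu1*, 0.055 for *Idua*, -0.071 for *Ids*, 0.055 for *Sgsh* and 0.130 for *Mcoln1*. With DESeq2 they were 0.028 for *Idua*, 0.012 for *Tpp1* and 0.006 for *Mcoln1*, and with its size factors 0.031, 0.015 and 0.010. *Idua* had 0.007 with library totals alone and 0.0002 with the naming batch. Library 5 over library 6 gave -0.170 for *Hexa* and 0.037 for *Tpp1*. Leaving out 1 library also gave -0.029 for *Hexa* (without library 5), 0.047 for *Idua* and -0.030 for *Ids* (library 2), 0.019 for *Sgsh* (library 3) and 0.044 for *Mcoln1* (library 5); the ranges over all libraries left out were -0.125 to 0.177 for *Hexa*, -0.175 to 0.073 for *Neu1*, -0.035 to 0.065 for *Idua*, -0.092 to 0.107 for *Ids*, -0.119 to 0.076 for *Sgsh*, -0.064 to 0.301 for *Galns*, -0.039 to 0.043 for *Tpp1* and -0.099 to 0.071 for *Mcoln1*. No paired analysis was possible because the columns carry no replicate number; they carry no sex either, so no sex term was fitted.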

Other observations

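Exons of 11 of the 36 genes overlap a gene on the other strand, and no source used here gives the strand setting of the count, so reads there cannot be assigned with certainty. The partner was more abundant than the lysosomal gene in every library for *Ppt1*, whose exons share 129 bases with *Cap1* (549 to 794 CPM against 108 to 173 CPM). *Apobr*, which shares 442 bases with *Cln3*, read above *Cln3* in wild-type libraries 4 (89.4 and 87.3 CPM) and 6 (130.4 and 83.1 CPM). In the other libraries it read below *Cln3*. *Npc1* overlaps *Rmc1* (37.6 to 48.7 CPM), *Idua* overlaps *Dgkq* (35.9 to 51.8 CPM) and *Acp2* overlaps *Ddb2* (7.44 to 15.8 CPM). *Arsb* shares 2411 bases with *Gm26527* and *Gm47210* on the other strand. *Gm47210* read at most 0.481 CPM, but no count was found under the symbol *Gm26527*, so its level is not known. *Arsa* overlaps *C230037L18Rik* (2.16 to 11.4 CPM), and *Glb1* shares 165 bases with *Tmppe* on its own strand.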
